A study of Mus musculus with 12 samples.

Results

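The 10 genes described here carry out the uptake, activation and breakdown of vitamin D and the control of phosphate in the kidney. They are Cyp24a1, Cyp27b1, Cyp2r1, Vdr, Lrp2, Cubn, Kl, Pth1r, Slc34a1 and Slc34a3, and they were listed by symbol among the 57180 Ensembl genes counted in each library. All 10 were found and all 10 passed the filter on low counts, which left 17163 genes. Kidney poly(A) RNA came from 12 male C57BL/6J mice, 60 days old at the start, with 4 mice in each of 3 groups and 1 library per mouse. Every mouse received an intraperitoneal injection each day for 28 days. The control group was given saline with Tween 80, and the other groups cannabidiol (CBD), a compound of Cannabis sativa, at 10 or 20 mg/kg b.w. in the same vehicle. Scrapes of kidney tissue were used, so each library mixed the cell types of the nephron, and fewer cells of a type and less RNA per cell cannot be told apart. Cyp24a1 was selected on its measured difference, a lower level in the treated mice that was known from earlier results of these data. Its differences between groups are therefore given as a description, without a p-value, and nothing is read from its place in a count of called genes. The other 9 genes were listed by function, with those results known.

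Vitamin D reaches the kidney as calcidiol bound to its carrier protein. In the proximal tubule the carrier is taken up from the filtrate by megalin (Lrp2) and cubilin (Cubn), and calcidiol is turned into the active hormone calcitriol by Cyp27b1 or inactivated by Cyp24a1. Calcitriol acts through its receptor Vdr, which raises Cyp24a1 and lowers Cyp27b1. Parathyroid hormone, through Pth1r, raises Cyp27b1, and FGF23, through klotho (Kl) and FGF receptors, lowers Cyp27b1 and raises Cyp24a1. Both hormones reduce the uptake of phosphate by the sodium-phosphate cotransporters Slc34a1 and Slc34a3.

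Reads assigned to genes numbered 15417867 to 23532088 in a library, and mitochondrial genes took from 3.53% to 23.4% of them. This share was under 10% in 4 libraries, replicate 2 of the control group, replicates 1 and 3 at 10 mg and replicate 3 at 20 mg. These libraries stood apart for some of the 10 genes, and values that moved most without them are given both ways. Levels are CPM, in which each count is divided by its library's size and TMM factor, and differences are log2 fold changes of edgeR, fitted to the 3 groups at once by quasi-likelihood. A gene was called where its p-value, adjusted by Benjamini-Hochberg over all genes tested, was under 0.1. Markers of the nephron segments were abundant, as the kidney label requires. The 4 markers of the first proximal segment (Slc5a2, Slc5a12, Slc7a7 and Slc4a4) summed to between 859 and 1937 CPM over the 12 libraries, and the 4 of the adrenal cortex to between 3.57 and 5.44 CPM. No marker was at 0 in all libraries. Of the 43 markers of 12 cell types that passed the filter, 1 was called by edgeR at 20 mg, Slc5a2, against 0.303% of all genes tested, and 0 at 10 mg, against 0.0291%. An unadjusted p-value under 0.05 was found for 8 of the 43 at 20 mg, with the 3 adipocyte markers tested among them, and for 6 at 10 mg. Of all genes tested the shares were 8.45% and 5.67%. All 8 markers were lower at 20 mg, as were 605 of the 1450 such genes among the 17163 tested. The 4 adipocyte markers (Adipoq, Plin1, Cidec and Lep) summed to 3.58 to 41.5 CPM in the control mice, 0.86 to 14.7 CPM at 10 mg and 0.42 to 7.17 CPM at 20 mg.

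Per kilobase of transcript, Slc34a1 was the most abundant of the 10 genes in the control kidneys, at 902 ± 112 CPM/kb (SD, n = 4). Pth1r (155 ± 13.7 CPM/kb) and Lrp2 (144 ± 20.3 CPM/kb) followed, and their control libraries overlapped. Kl was at 75.2 ± 4.20 CPM/kb. Vdr (60.5 ± 8.97 CPM/kb), Cyp24a1 (47.7 ± 10.2 CPM/kb) and Cubn (33.3 ± 10.4 CPM/kb) overlapped each with the next. Slc34a3 was at 11.2 ± 1.22 CPM/kb, Cyp27b1 at 5.16 ± 2.69 CPM/kb and Cyp2r1 at 0.167 ± 0.066 CPM/kb, and these 3 were separate from each other and from Cubn. In the control mice the transcript of the breakdown enzyme Cyp24a1 was thus at a higher level per kilobase than that of the activating enzyme Cyp27b1. Cyp2r1, a hydroxylase that makes calcidiol in the liver, was near the limit of detection, with 3 to 31 counts per library.

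**Figure D1:**
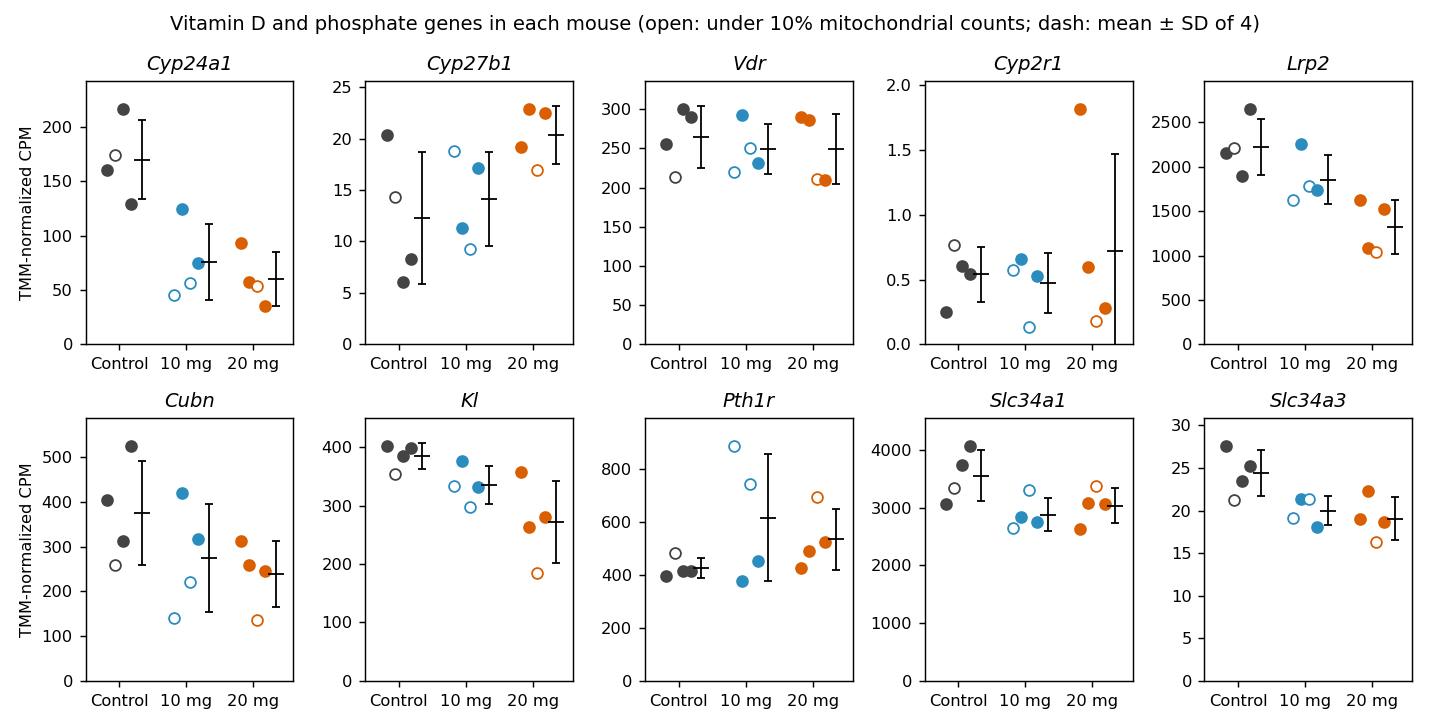
TMM-normalized CPM (vertical axis, from 0, a scale of its own for each gene) of the 10 genes in every mouse of the control group and of the groups treated with 10 and 20 mg CBD/kg b.w. (horizontal axis). Each point is 1 library, open where mitochondrial genes took under 10% of the counts, and the dash and bar are the mean and SD of 4 mice (cut at 0 for Cyp2r1). The 8 treated mice lie between 34.8 and 125 CPM for Cyp24a1, all below the control mice, and the open points are high for Pth1r and low for Cubn.

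Cyp24a1 (ENSMUSG00000038567), the hydroxylase that inactivates calcitriol and calcidiol, lies on chromosome 2 from 170324628 to 170339065 (GRCm39, minus strand) and has 12 exons. Its level was 161, 174, 216 and 129 CPM in the 4 control mice, 45.3, 125, 56.3 and 75.2 CPM in the mice treated with 10 mg, and 93.6, 57.7, 53.6 and 34.8 CPM in those treated with 20 mg, in order of replicate. All 8 treated mice lay below all 4 control mice, while the doses overlapped. The means were 170 ± 36.3 CPM for the control mice, 75.3 ± 35.0 CPM for those given 10 mg and 59.9 ± 24.5 CPM for those given 20 mg (SD, n = 4). At 10 mg, 1.64% of all genes tested were below the control group without overlap, and at 20 mg 2.63%. The log2 fold change was -1.18 (standard error 0.31) at 10 mg and -1.50 (standard error 0.31) at 20 mg, which are 0.443 and 0.353 times the control level. Between the doses it was -0.33 (standard error 0.31), and it became 0.026 when the highest of the treated mice, replicate 2 at 10 mg, was left out. It made up the count of 1 of 10 members called at 20 mg, where 0.303% of all genes tested were called, and this count says nothing about the gene, which was listed for that difference. Without the 4 libraries of low mitochondrial share, its log2 fold change was -0.76 at 10 mg, where 2 treated mice were left, and -1.44 at 20 mg. The groups also differed in Dbp, an output gene of the circadian clock, which was at 1.43 to 2.92 CPM in the control mice, 12.9 to 19.6 CPM at 10 mg and 22.1 to 26.9 CPM at 20 mg. Dbp had log2 fold changes of 2.75 and 3.35 at 10 and 20 mg. It was chosen as a gene that moved with the groups, so these values are a description without a p-value. The time of day of tissue collection is not given in the sources used here, and the part of the clock in the level of Cyp24a1 was not tested. The gene Pfdn4 overlaps Cyp24a1 on the opposite strand. It had 88 to 255 counts per library, against 617 to 4294 for Cyp24a1. The strand setting of the counting is not given, and the effect of the overlap on these counts was not tested.

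Cyp27b1 (chromosome 10, 126884119 to 126888875), which makes calcitriol, was measured at 20.3, 14.4, 6.09 and 8.32 CPM in the control mice. The values were 18.8, 11.3, 9.31 and 17.2 CPM at 10 mg and 19.1, 22.9, 17.0 and 22.5 CPM at 20 mg. Only replicate 1 of the control group reached the range of the mice treated with 20 mg, and the control group was the most variable (12.3 ± 6.40 CPM against 20.4 ± 2.82 CPM at 20 mg). At 20 mg its log2 fold change was 0.73 (standard error 0.31, 95% confidence interval 0.067 to 1.38, unadjusted p = 0.0329), and it was not called (adjusted p = 0.537, edgeR). Without that control mouse it was 1.09, and without replicate 3 of the control group, the lowest, 0.50, with neither called. At 10 mg it was 0.20 (95% confidence interval -0.46 to 0.86). In each mouse the ratio of Cyp24a1 to Cyp27b1 per kilobase was 5.28, 8.09, 23.7 and 10.3 in the control group, 1.61, 7.33, 4.05 and 2.92 at 10 mg and 3.27, 1.69, 2.11 and 1.03 at 20 mg. The ratio was thus lower in all 4 mice treated with 20 mg than in any control mouse, and the values are a description, since Cyp24a1 enters them.

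Vdr (chromosome 15, 97752306 to 97808511), the receptor through which calcitriol controls both enzymes, had nearly equal levels in the 3 groups. Its mean was 265 ± 39.3 CPM in the control group, 249 ± 32.0 CPM at 10 mg and 249 ± 44.9 CPM at 20 mg (SD, n = 4). Its log2 fold change was -0.09 at each dose, with 95% confidence intervals of -0.42 to 0.24 at both. Cyp2r1 (chromosome 7, 114147807 to 114162221) ranged from 0.14 to 1.82 CPM, and its interval at 20 mg, -0.91 to 1.74 on the log2 scale, left changes in either direction possible. Its sign at 20 mg depended on replicate 1 of that group, which held 31 counts, and the value turned from 0.42 to -0.60 without it. Without the 4 libraries of low mitochondrial share it was 0.96.

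**Figure D2:**
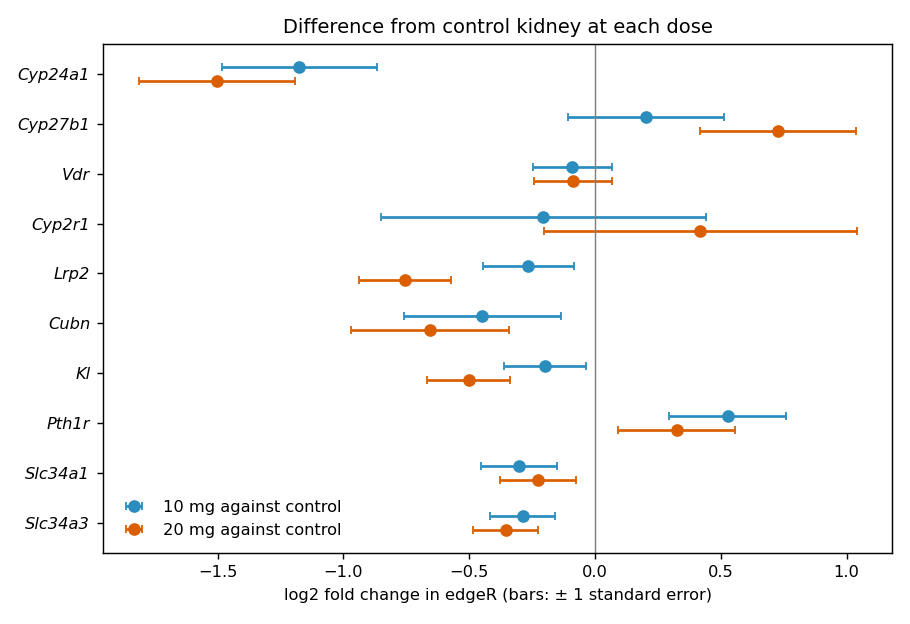
Log2 fold changes from edgeR (horizontal axis) of the 10 genes (vertical axis) at 10 mg and at 20 mg against the same 4 control mice, with bars of 1 standard error. Cyp24a1 lies lowest at both doses (-1.18 and -1.50), Cyp27b1 and Pth1r lie above 0 at both, and Vdr lies near 0.

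Of the other 9 genes, 0 were called by edgeR at 10 mg, at 20 mg or between the doses, where 0.0291%, 0.303% and 0% of all genes tested were called. At 20 mg, 4 of the 9 had an unadjusted p-value under 0.05 (Lrp2, Kl, Slc34a3 and Cyp27b1), against 8.45% of all genes tested. At 10 mg there were 2 (Pth1r and Slc34a3), against 5.67%, and between the doses 1 (Lrp2), against 6.31%. The median log2 fold change of the 9 was -0.23 at 20 mg and -0.21 at 10 mg, and that of all genes tested 0.015 and 0.012. DESeq2's Wald test called Lrp2 at 20 mg and none of the 9 at 10 mg or between the doses, where 1.13%, 0.258% and 0.0986% of the genes were called. In edgeR with no filter on low counts, Cubn, Cyp27b1 and Lrp2 were called at 20 mg, with 1.04% of all genes, and none of the 9 was called between the doses, with 0.64%. With the replicate number as a block, 0 of the 10 members were called at 20 mg, with 0.157% of all genes. Without the 4 libraries of low mitochondrial share, 0 of the 9 were called at 20 mg, with 0.611% of all genes.

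Lrp2 (ENSMUSG00000027070, chromosome 2, 69254682 to 69416409) encodes megalin, the large endocytic receptor of the proximal tubule brush border. It was at 2157, 2211, 1891 and 2649 CPM in the control mice, 1631, 2259, 1784 and 1739 CPM at 10 mg and 1630, 1089, 1035 and 1524 CPM at 20 mg. Every mouse treated with 20 mg lay below every control mouse and, by a narrow margin, below every mouse treated with 10 mg. At 20 mg, 2.63% of all genes tested were below the control group without overlap, and 1.4% were so against the group treated with 10 mg. The log2 fold change at 20 mg was -0.76 (standard error 0.18, 95% confidence interval -1.14 to -0.37), or 0.593 times the control level, with an unadjusted p of 0.00084 and an adjusted p of 0.173 in edgeR. It was -0.26 at 10 mg (adjusted p = 0.893), or -0.16 without the 4 libraries of low mitochondrial share, and -0.49 between the doses (adjusted p = 0.758). DESeq2 gave an adjusted p of 0.00597 at 20 mg. With the mitochondrial share as a covariate, Lrp2 was at -0.80 in edgeR (adjusted p = 0.0151), a setting in which 8.08% of all genes were called, and without the 4 libraries of low share it gave -0.66 (adjusted p = 0.164). With 1 library left out at a time, the value stayed between -0.87 and -0.66.

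Cubn (chromosome 2, 13281149 to 13496624) encodes cubilin, the partner of megalin in binding the vitamin D carrier. Its values were 405, 258, 313 and 526 CPM in the control mice, 142, 420, 222 and 317 CPM at 10 mg and 312, 259, 136 and 245 CPM at 20 mg, and all groups overlapped. In edgeR the log2 fold change of Cubn was -0.45 at 10 mg and -0.66 at 20 mg (standard error 0.31 for each, 95% confidence intervals -1.11 to 0.22 and -1.32 to 0.011). Cubn was at 136 to 258 CPM in the 4 libraries of low mitochondrial share and at 245 to 526 CPM in the other 8. Without those 4 libraries it was -0.17 at 10 mg and -0.61 at 20 mg. With the mitochondrial share as a covariate it was -0.93 at 20 mg and was called (adjusted p = 0.0181, edgeR). In that setting 8.08% of all genes were called. The ratio of Cubn to Lrp2 did not differ detectably between groups. On the log2 scale, per kilobase, it was -2.15 ± 0.34 in the control group, -2.40 ± 0.52 at 10 mg and -2.05 ± 0.36 at 20 mg (exact permutation tests, two-sided, p = 0.486, 0.714 and 0.343 for 10 mg, 20 mg and between the doses, adjusted p = 0.771, 0.857 and 0.771 over 6 tests). With 4 mice against 4, the smallest p these tests can give is 0.0286.

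The transcripts of Lrp2 and Cubn are long, 15462 bases in 79 exons and 11262 bases in 67 exons. For the 940 other genes tested with a canonical transcript of at least 8000 bases, the median log2 fold change was -0.084 at 20 mg. At 10 mg it was -0.051. At 20 mg 614 of the 940 were lower, against 8146 of all 17163 genes tested, and at 10 mg 595, against 8185. An unadjusted p-value under 0.05 in edgeR was found for 88 of the 940 at 20 mg, 69 of them lower. Among all genes tested, 605 of 1450 such genes were lower. Of the 940, 1 was called at 20 mg, against 0.303% of all genes tested. The mean log2 CPM of the 940 genes minus that of all genes tested served as an index of long transcripts. It ranged from 1.10 to 1.34 in the control libraries, 0.945 to 1.27 at 10 mg and 0.857 to 1.24 at 20 mg. With this index as a covariate, the log2 fold change at 20 mg was -0.63 for Lrp2 (adjusted p = 0.04997, edgeR) and -0.27 for Cubn (adjusted p = 0.343), where 1.71% of all genes were called. Slc5a2, the glucose cotransporter of the first proximal segment, fell at 20 mg (adjusted p = 0.082, edgeR). It was at 217 ± 16.2 CPM in the control mice and 143 ± 13.6 CPM at 20 mg (SD, n = 4). All 4 markers of that segment had negative log2 fold changes at 20 mg, -0.61 to -0.22. The 4 of the second segment had a median of -0.019 (-0.18 to 0.097). The 4 of the third had a median of 0.16 (-0.13 to 0.33), with 3 of them higher. The part of the segments in the difference of Lrp2 was not tested.

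**Figure D3:**
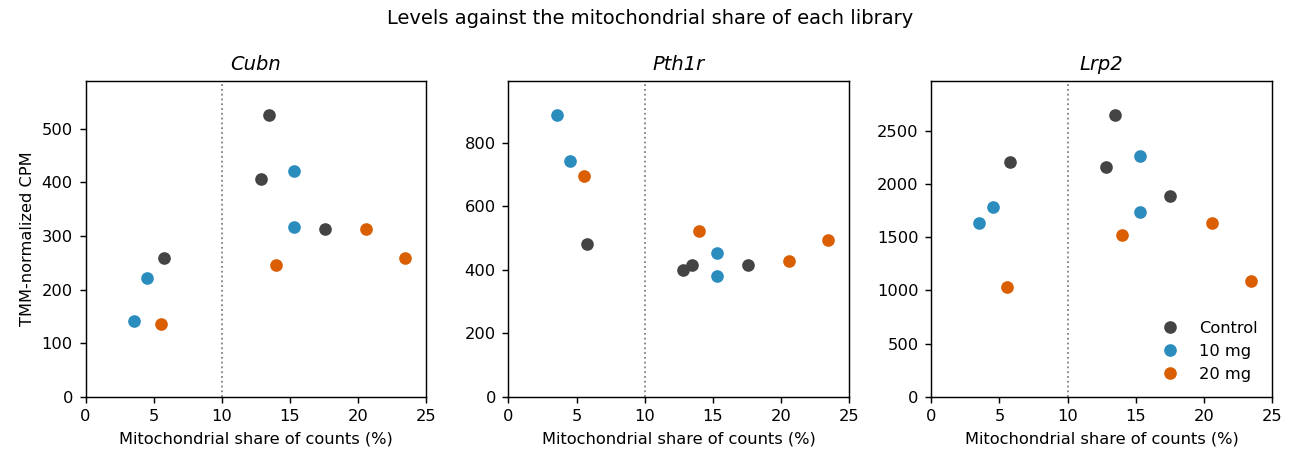
TMM-normalized CPM of Cubn, Pth1r and Lrp2 (vertical axes, from 0) against the mitochondrial share of counts in percent (horizontal axis) in the 12 libraries, coloured by group, with a dotted line at 10%. To the left of the line Cubn lies between 136 and 258 CPM and Pth1r between 483 and 888 CPM. For Lrp2 the mice treated with 20 mg are the lowest on each side of the line.

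Kl (chromosome 5, 150876072 to 150917284) encodes klotho, which FGF23 needs to bind its receptors in the tubule. It was at 402, 355, 385 and 398 CPM in the control mice, 334, 377, 299 and 332 CPM at 10 mg and 357, 264, 185 and 281 CPM at 20 mg. The control mice were the least variable, and replicate 1 of the group treated with 20 mg reached their lowest value. For Kl the log2 fold change was -0.20 at 10 mg (95% confidence interval -0.55 to 0.15) and -0.50 at 20 mg (standard error 0.16, 95% confidence interval -0.85 to -0.15, unadjusted p = 0.00805, adjusted p = 0.391, edgeR). Without the 4 libraries of low mitochondrial share it was -0.39 at 20 mg, and with the share as a covariate -0.61 (adjusted p = 0.0182, edgeR). In the fit with the covariate Kl was called, as were 8.08% of all genes.

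Pth1r (chromosome 9, 110550767 to 110576259), the receptor of parathyroid hormone, had higher means in both treated groups than in the control group. It was at 398, 483, 415 and 414 CPM in the control mice, 888, 380, 743 and 453 CPM at 10 mg and 429, 493, 697 and 524 CPM at 20 mg. The 3 highest values, 697, 743 and 888 CPM, came from the treated libraries with a mitochondrial share under 10%, and the control library with such a share was the highest of its group. In edgeR the difference was 0.53 on the log2 scale at 10 mg (standard error 0.23, unadjusted p = 0.0386, adjusted p = 0.834, edgeR) and 0.33 at 20 mg (adjusted p = 0.772). Without the 4 libraries it was 0.022 at 10 mg and 0.24 at 20 mg. With the mitochondrial share as a covariate it was 0.47 at 20 mg and was called (adjusted p = 0.0704, edgeR). With that covariate 8.08% of all genes were called. Within the libraries under 10%, the means were 483 CPM in 1 control library, 816 CPM in 2 libraries at 10 mg and 697 CPM in 1 library at 20 mg. Within the others they were 409, 416 and 482 CPM in 3, 2 and 3 libraries.

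Slc34a1 (chromosome 13, 55546000 to 55563413), the main sodium-phosphate cotransporter of the proximal tubule, had a mean of 3553 ± 442 CPM in the control group, 2882 ± 293 CPM at 10 mg and 3037 ± 303 CPM at 20 mg (SD, n = 4). Groups overlapped, with 3063 to 4070 CPM in the control mice, 2642 to 3306 CPM at 10 mg and 2636 to 3370 CPM at 20 mg. The log2 fold changes were -0.30 (95% confidence interval -0.62 to 0.017) and -0.23 (-0.55 to 0.092). Slc34a3 (chromosome 2, 25118910 to 25124376), its less abundant relative, was at 27.6, 21.3, 23.5 and 25.2 CPM in the control mice, 19.2, 21.4, 21.4 and 18.02 CPM at 10 mg and 19.0, 22.3, 16.3 and 18.6 CPM at 20 mg. At each dose at least 1 treated mouse lay just above the lowest control mouse. Its log2 fold changes were -0.29 at 10 mg (95% confidence interval -0.56 to -0.012, adjusted p = 0.855) and -0.36 at 20 mg (standard error 0.13, 95% confidence interval -0.63 to -0.079, adjusted p = 0.466). With the mitochondrial share as a covariate, where 8.08% of all genes were called, Slc34a3 was at -0.40 at 20 mg and was called (adjusted p = 0.065, edgeR). The log2 ratio of Slc34a3 to Slc34a1 per kilobase was -6.33 ± 0.26 in the control group, -6.32 ± 0.11 at 10 mg and -6.47 ± 0.28 at 20 mg, and it did not differ detectably (exact permutation tests, p = 0.914 and 0.514 at 10 and 20 mg and 0.371 between the doses, adjusted p of at least 0.771 over the same 6 tests).

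The promoters of 9 members, all but Cyp24a1, were read from a RefSeq table of GRCm38.p6 as 250 bases before to 50 bases after the start site, 11 sequences in all. They were searched on both strands for the arrangement bound by Vdr and its partner, a pair of core motifs in the same orientation with 3 bases between them, where each core was AGGTCA or AGTTCA or GGGTCA or GGTTCA. No promoter of the 9 genes held an exact pair, as 0.0396% of all 32851 promoters did. With up to 2 mismatches over both cores, 2 of the 11 sequences had a match, 1 each of Slc34a1 and Cyp2r1. This is near the 19.0% of all promoters that had one. The 4 matches are shown because they are the elements nearest to that arrangement within these promoter sequences, with the cores in capitals.
Slc34a1, bases -26 to -12, same strand, 1 mismatch: AGTTCTtctAGTTCA
Slc34a1, bases -17 to -3, same strand, 2 mismatches: AGTTCAttaAGGACT
Slc34a1, bases -190 to -176, opposite strand, 2 mismatches: GGCTCAtccTGGTCA
Cyp2r1, bases -139 to -125, opposite strand, 2 mismatches: GGGTCCtttGGGTTA
Positions are counted from -1, the base before the start site, on the strand of the gene, and the first pair of Slc34a1 shares a core with the second. A match of these letters is a description and no binding was measured.

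Beyond the 10 genes, 51 genes of the same pathways were listed by function, with earlier results of these data known. Of these, 46 passed the filter on low counts. At 20 mg, 1 of the 46 was called by edgeR, with decreased expression, against 0.303% of all genes tested, and the median log2 fold change was -0.12, against 0.015. At 10 mg and between the doses 0 were called, against 0.0291% and 0%. An unadjusted p-value under 0.05 was found for 7 of the 46 at 20 mg, against 8.45% of all genes tested. There were 4 at 10 mg, against 5.67%, and 4 between the doses, against 6.31%. All 7 at 20 mg were lower, as were 605 of the 1450 such genes among all 17163 tested. DESeq2 called 2 of them at 20 mg, Slc8a1 and Calb1, against 1.13% of all genes, and 0 in the other comparisons, against 0.258% and 0.0986%. Fgf23 and Pth, the hormone genes, had 0 counts in all 12 libraries, which allows up to 0.195 CPM in the smallest library (3 counts, counting error only). Phex, Pthlh and Pth2r had at most 6 counts in any library.

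The gene called was Slc8a1 (chromosome 17, 81680534 to 82045891), the sodium-calcium exchanger by which distal tubule cells pass calcium to the blood. It was at 91.0, 89.6, 74.2 and 93.3 CPM in the control mice, 48.8, 69.6, 50.6 and 66.8 CPM at 10 mg and 47.0, 55.9, 39.4 and 48.1 CPM at 20 mg, so that all treated mice lay below all control mice. Of all genes tested, 1.64% at 10 mg and 2.63% at 20 mg were below the control group without overlap. For Slc8a1 the log2 fold change was -0.87 at 20 mg (standard error 0.15, adjusted p = 0.0340, edgeR) and -0.56 at 10 mg (adjusted p = 0.679). The list was made with earlier results of these data known, so calls and counts of its genes are not an independent test. At 10 mg the lowest values, 48.8 and 50.6 CPM, came from the libraries of low mitochondrial share, and without the 4 such libraries the log2 fold change was -0.34 at 10 mg and -0.77 at 20 mg. The call was lost without replicate 1, 2 or 4 of the control group, where the adjusted p was 0.110, 0.111 and 0.134. Calb1 (chromosome 4, 15881155 to 15908085), the calcium-binding protein calbindin of the same cells, was at 209, 244, 97.9 and 165 CPM in the control mice and at 111, 84.3, 86.4 and 98.9 CPM at 20 mg. For Calb1 the log2 fold change was -0.91 at 20 mg (standard error 0.22, adjusted p = 0.168, edgeR) and -0.49 at 10 mg (adjusted p = 0.843). Without the 4 libraries of low mitochondrial share it was -0.68 at 20 mg (adjusted p = 0.211) and -0.17 at 10 mg. With 1 library left out it ranged from -1.12 to -0.73 at 20 mg, with adjusted p from 0.0191 to 0.478. It was called without replicate 3 of the control group, the lowest (-1.12, adjusted p = 0.0191). The 4 markers of the distal convoluted tubule (Slc12a3, Pvalb, Trpm6 and Wnk1) had log2 fold changes of -0.48 to -0.28 at 20 mg, none of them called by edgeR and 2 with an unadjusted p-value under 0.05 (8.45% of all genes tested). Of the 6 distal calcium genes, 5 had negative log2 fold changes at 20 mg, against 8146 of all 17163 genes tested. An unadjusted p-value under 0.05 was found for 3 of the 6, all lower, against 8.45% of all genes tested in both directions. Beside Slc8a1 and Calb1, the values were -0.60 for Trpv5, -0.14 for Atp2b1, -0.020 for S100g and 0.16 for Trpv6. Their edgeR adjusted p-values were between 0.533 and 0.989. S100g was nearly equal, at 716 ± 117 CPM in the control mice and 706 ± 82.7 CPM at 20 mg (SD, n = 4).

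**Figure D4:**
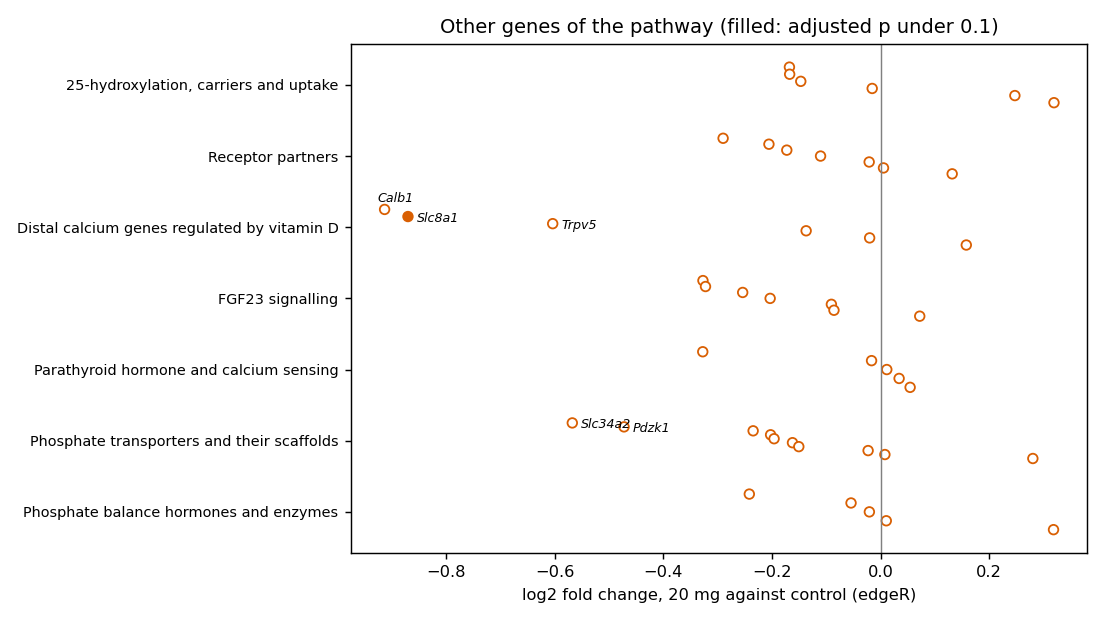
Log2 fold changes at 20 mg against control (horizontal axis) of the 46 other pathway genes tested, in 7 functional groups (vertical axis), 1 point per gene and filled where the adjusted p is under 0.1. Slc8a1 is the filled point, Calb1 lies lowest at -0.91, and the median of all 46 is -0.12.

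In the other groups of the wider list 0 genes were called at either dose in the edgeR model of the 3 groups. With the mitochondrial share as a covariate, Amn, Dab2 and Xpr1 were called at 20 mg beside Slc8a1 and Calb1, where 8.08% of all genes were called. Without a filter on low counts, Egr1 and Slc8a1 were called at 10 mg, where 0.827% of all genes were called. These 4 genes, Amn, Dab2, Xpr1 and Egr1, are named because of those calls, after their values were seen. Among the phosphate transporters and their scaffolds, 8 of 10 had negative log2 fold changes at 20 mg, against 8146 of all 17163 genes tested. An unadjusted p-value under 0.05 was found for 2, against 8.45% of all genes tested. These were Slc34a2, another member of the cotransporter family (-0.57, standard error 0.24, adjusted p = 0.534), and Pdzk1, a scaffold protein of the brush border (-0.47, standard error 0.20, adjusted p = 0.540). Pdzk1 was at 415 to 460 CPM in the control mice and 271 to 398 CPM at 20 mg without overlap, while at 10 mg it ranged from 372 to 766 CPM. At 20 mg, 3 of the 46 genes of the wider list lay below the control group without overlap, against 2.63% of all genes tested. In the FGF23 group, 6 of 7 genes had negative values, with Fam20c, a kinase of secreted proteins, at -0.33 and Galnt3, which glycosylates FGF23, at -0.32 (-0.16 without the 4 libraries of low mitochondrial share). In the group of carriers and uptake, Cyp27a1, a mitochondrial hydroxylase, was at 0.25 and Lrpap1, the chaperone of megalin, at -0.15 (-0.22 without those libraries). Of the receptor partners, the disulfide isomerase Pdia3 was at -0.29 and the corepressor Ncor1 at -0.21. Casr, the calcium sensor, was at -0.33 and Prkaca, a catalytic subunit of protein kinase A, at 0.034 (0.13 without those libraries). Stc1 and Stc2, the stanniocalcins, were at 0.32 and -0.24. From Fam20c on, the edgeR adjusted p-values of the genes named were between 0.546 and 0.979.

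With the group means removed, the genes most like Cyp24a1 over the 12 libraries were Eaf1, Esrrg, Oxsm, Wdr26 and Lrig2 (Pearson's r from 0.904 to 0.942 on log2 CPM), among 14683 genes with a mean of at least 1 CPM. The least like it were Mllt1, Zgpat, Opa3, Nop2 and Dzip1l (r from -0.959 to -0.926). Of the 8 other members at that level, Vdr was the most similar to Cyp24a1 (r = 0.614) and Pth1r the least (r = -0.700). Lrp2 was most like Lipt1, Vstm2a, Extl2, Acly and Epb41l5 (r from 0.905 to 0.958) and least like Pde11a, Rflnb, Ly6c1, Snrpd2 and Gm17501 (r from -0.955 to -0.912). Among the members it was most like Kl (r = 0.719) and Cubn (r = 0.705). These values describe 12 libraries that also differ in mitochondrial share, and they are given without a test, as the genes were ranked by them.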

How the data were processed

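The libraries were made from poly(A) RNA of mouse kidney with a Lexogen CORALL kit. Per the authors, trimming was done in Flexbar, mapping to GRCm39 in STAR 2.7.5c and counting in htseq-count 1.99.2. The deposited values are raw counts per Ensembl gene, 1 library per file, with no pooling. The annotation release, the strand setting and the use of molecular identifiers are not given in the sources used here. Identifiers were matched to GENCODE vM39 (99.0% of them, holding 99.95% of the counts), from which positions and the lengths of canonical transcripts were taken. The summary lines of the counter were left out, of which reads on no gene were 12.1% to 19.9% of uniquely mapped reads. No 2 libraries held identical counts.

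Counts were filtered with filterByExpr, normalized by TMM and tested with edgeR 4.0.16 in R 4.3.3 in a model of 3 group means over all 12 libraries, with Benjamini-Hochberg adjustment over all genes tested. Standard errors are the log2 fold change divided by the root of the test's F value. The tests were also tried on simulated data with known changes. Ratios were compared by exact permutation tests. Alternatives were RLE and upper-quartile normalization, DESeq2 1.42.0, limma-voom (limma 3.58.1), 2 other filters, a block for the replicate number, a model of only the 2 groups in question, 2 covariates, removal of mitochondrial genes, a threshold of 0.05 and each library left out. Leaving out the 4 libraries of low mitochondrial share was added after the data were seen. Members and lists were chosen with earlier results of these data known. The genes named are the 10 members, the called genes of the wider list and the 2 of smallest p at 20 mg in each of its 7 groups, Dbp, and the 5 genes most and the 5 least like each of Cyp24a1 and Lrp2. Protein sequences were not analysed here. Slc5a2 was named after its values were seen, as the 1 marker called. Trpv5, Atp2b1, S100g and Trpv6 were also named after their values were seen, to complete the distal calcium genes. Each mouse gave 1 library. The intervals are for the difference between group means, with an error estimated from the spread between mice.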

Additional observations from a re-analysis of the deposited data

Results flagged for a closer look

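Of 72 groups of 4 libraries examined, for the 10 members and the 14 named genes of the wider list in each of the 3 groups, 2 held a library far from the others. Both values came from the library at 20 mg with a mitochondrial share under 10%, replicate 3. Prkaca was at 30.8 CPM in it and at 41.2 to 42.9 CPM in the other 3. Stc2 was at 1.98 CPM in it and at 3.41 to 3.57 CPM in the others. Chance flags about 1 in 20 such groups.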

How the results depend on the processing

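Counts of calls varied with the method, as did the share of all genes called. At 10 mg, 1 member (Cyp24a1) was called by DESeq2 (0.258% of all genes) and 1, the same gene, without a filter on low counts (0.827%), against 0 in edgeR (0.0291%). At 20 mg, 1 was called in edgeR (0.303%), 2 by DESeq2 (1.13%), 2 with the long-transcript index as a covariate (1.71%), 6 with the mitochondrial share as a covariate (8.08%), 4 without the filter (1.04%) and 0 at an adjusted p under 0.05. Each count of members above 0, at 10 or at 20 mg, includes Cyp24a1, which was listed for its difference and from which nothing is read. Of the wider list, 2 genes were called without the filter at 10 mg (0.827%), 2 at 20 mg (1.04%) and 2 between the doses (0.64%), and at 20 mg 2 by DESeq2 (1.13%), 2 with the long-transcript index (1.71%) and 5 with the mitochondrial share (8.08%). With 1 library left out, 0 to 1 members and 0 to 2 genes of the wider list were called at 20 mg. The 1 member was again Cyp24a1, in only 3 of 12 such fits, and nothing is read from it. The causes were not tested.

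The labels do not say whether the replicate numbers pair the mice, and no pairing was detected. Over 12 pairs of libraries with the same number, the correlation of deviations from the group means ranged from -0.33 to 0.32, with 4 pairs over 0.1, and 3 of 12 libraries correlated best with their own number. With the number as a block, 0 members were called at 20 mg. The calls over all genes at 20 mg went from 52 (0.303%) to 27 (0.157%).

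Some small differences changed sign. With the long-transcript index, Vdr was at 0.0020 at 10 mg and 0.031 at 20 mg, and Cyp2r1 at 0.083 at 10 mg. Between the doses, Vdr was at -0.0026 in DESeq2, -0.0026 with RLE factors, -0.0073 in limma-voom and -0.18 with the mitochondrial share. With that share, Cyp2r1 was at -0.0027 and Prkaca at -0.053 at 20 mg, and Pth1r at 0.15 between the doses. Without the 4 libraries of low share, Cyp2r1 was at 0.36 at 10 mg, and between the doses Pth1r was at 0.22 and Slc34a3 at 0.028. The log2 ratios at 10 mg became -0.0031 for Slc34a3 to Slc34a1 and 0.0069 for Cubn to Lrp2. With 1 library left out, the log2 fold change ranged from -0.022 to 0.56 for Cyp27b1 at 10 mg, and for Cyp2r1 from -0.45 to 0.12 at 10 mg, -0.60 to 0.73 at 20 mg and -0.39 to 0.94 between the doses. Prkaca ranged from -0.015 to 0.13 at 20 mg. Between the doses the ranges were -0.078 to 0.092 for Vdr, -0.42 to 0.071 for Cubn, -0.37 to 0.029 for Pth1r and -0.15 to 0.0011 for Slc34a3. The ratio of Cubn to Lrp2 ranged from -0.056 to 0.25 at 20 mg, and that of Slc34a3 to Slc34a1 from -0.037 to 0.14 at 10 mg. A minimum of 10 counts in every library gave no value for Cyp2r1, whose 3 to 31 counts limit its precision.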
